A study of Mus musculus with 15 samples.

Results

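The genes Cgnl1, Uaca, Trak2, Cyb5r3, Kcnma1, Akap12, Pkp4, Kctd10, Tsc22d2 and AI506816 were brighter on arrays of LSK cells cultured with extracellular vesicles of AFT stromal cells than on arrays of cells cultured without them. These 10 were chosen by that difference, among 22180 genes with a probe set of their own, so the difference itself is given as a description with no test. All 11 probe sets that the platform annotation assigns to 1 of these symbols alone were taken; Kcnma1 has 2 and each of the other 9 genes has 1. LSK cells are lineage-negative, Sca-1-positive, Kit-positive mouse cells, the sorted fraction that holds hematopoietic stem cells and early progenitors. The study has 3 groups of 5 Mouse Gene 2.0 arrays: LSK cells taken after sorting (non-cultured), LSK cells kept for 18 h in MyeloCult M5300 (without EV), and LSK cells kept for 18 h in that medium with vesicles of AFT cells (with EV). The labels give no mouse strain, age, vesicle dose or number of animals behind a sample, and the replicates are described by the submitters as biological.

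Extracellular vesicles are membrane-bound particles that cells release and that carry proteins, lipids and RNA to other cells. The 10 genes do not form 1 pathway. Cgnl1 (paracingulin) and Pkp4 (p0071) encode plaque proteins of cell junctions; Akap12 (gravin) and Uaca (nucling) encode large cytoplasmic scaffold proteins; Trak2 links mitochondria to kinesin motors and Cyb5r3 passes electrons from NADH to cytochrome b5. Kcnma1 encodes the pore of the BK potassium channel, Kctd10 an adaptor of the CUL3 ubiquitin ligase, Tsc22d2 a leucine zipper protein, and AI506816 is a long non-coding RNA.

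The values are log2 signals as deposited, and a difference of 1 on this scale is a 2-fold change. Array medians lay between 4.62 and 4.74, and none of the 105 pairs of arrays held identical values. The array with EV replicate 1 stood a little apart, with a mean correlation of 0.964 with its group over all genes, against 0.974 to 0.976 for the other 4 arrays with EV. Without it the members' differences between cultures with and without EV ran from 0.72 to 2.89, with the same median of 1.98 as with it. The members were chosen by this difference on these same arrays, so the unchanged median is a description and no check of that array. Of the LSK and early progenitor markers, Kit and Cd34 had group means of the log2 signal of at least 9.62 and 10.4, Procr lay between 5.51 and 5.78, and Slamf1, at 3.79 to 4.31, lay below the array medians. Of 12 measured LSK markers 0 were called by limma between the cultures with and without EV. An unadjusted p under 0.05 was found for 0 of them. With 0.18% of all genes called higher there and 0.018% lower, this is no result about the markers. Without EV, limma called Flt3 (log2 difference 0.63), Gata2 (0.69) and Kit (0.39) higher than in freshly sorted cells. Cd48 (−0.80) and Mecom (−0.73) were called lower. In that comparison 6.75% of all genes rose and 6.88% fell. With EV, Flt3 (0.65) was called higher than in those cells, and Hlf (−0.38) and Mecom (−0.86) lower. Ly6a, which encodes Sca-1, is not analysed here. In arrays of whole samples, more RNA per cell and more cells of one kind cannot be told apart.

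The promoters of the members are shown first because the members share a direction of difference and their upstream sequence was not used to choose them. A list of promoter windows (assembly GRCm38.p6) gives the 250 bases before a listed start for 7 of the 10 genes, in 8 windows. For Cgnl1, Uaca, Trak2, Kcnma1 and the second Pkp4 window, the listed start lies inside the gene's span given below. Distances are counted from the listed start. Akap12, Cyb5r3 and Tsc22d2 have no window and are named only. The GC box, GGGCGG on either strand, was present in 7 of these 8 windows and in at least 1 window of each of the 7 genes. Of all 32851 windows listed there, 32.7% held it, and over the 21263 windows of protein-coding genes 42.6% did. The 30-base stretches that follow hold the GC box closest to the listed start of each protein-coding member, in capitals. They read 5′ to 3′ on the strand of the gene, where CCGCCC is a GC box on the other strand.
Cgnl1, chr9:71771603-71771632, minus strand: ccgggagggcgggcgactgcaGGGCGGggc
Uaca, chr9:60794381-60794410, plus strand: aaaagggaagtcCCGCCCccttcccggttt
Trak2, chr1:58973584-58973613, minus strand: gggcccgccgctCCGCCCcaccgcgcctcc
Kcnma1, chr14:24004247-24004276, minus strand: ccaggcgcctccCCGCCCccctcccggcgc
Pkp4, chr2:59160820-59160849, plus strand: actggccgggcgggcGGGCGGgctggcggc
Kctd10, chr5:114380507-114380536, minus strand: cgccggaagtgcCCGCCCcggccccgcctc
The capitals lay 9 bases before the listed start in Cgnl1, 15 in Pkp4, 19 in Kctd10, 49 in Uaca, 59 in Kcnma1 and 119 in Trak2. The whole window of the non-coding RNA AI506816 (chr5:23712668-23712917, minus strand) holds 2 GC boxes, in capitals, 93 and 14 bases before its start.
AI506816: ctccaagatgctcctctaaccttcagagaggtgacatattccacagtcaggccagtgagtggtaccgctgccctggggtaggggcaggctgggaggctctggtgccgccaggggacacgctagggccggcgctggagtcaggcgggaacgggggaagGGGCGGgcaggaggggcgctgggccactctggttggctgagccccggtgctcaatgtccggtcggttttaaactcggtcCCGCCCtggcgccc

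The members' windows were rich in G and C. Their GC content ran from 56.8% to 79.2% with a median of 69.0%, against a median of 52.4% over all windows and 55.6% over those of protein-coding genes, and a GC-rich window holds a GC-rich motif more often. The other motifs were sought on both strands. CCAAT was found in 2 of the 8 windows (33.8% of all windows hold it). In the first Pkp4 window matches of CCAAT and of the GC box overlap, and the second Pkp4 window held neither. The AP-1 motif TGANTCA (6.75% of all windows), the CRE TGACGTCA (1.55%), the TEAD motif CATTCC (12.6%), the E-box CACGTG (6.02%), TATAAA (12.4%) and the CArG box (1.47%) were in 0 of the 8 windows. These matches describe letters in the windows and say nothing of binding.

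The 10 genes lie on 8 autosomes. Cgnl1 (chr9:71626507-71809300) and Uaca (chr9:60793206-60880431) share chromosome 9, and Kctd10 (chr5:114363572-114380505) and AI506816 (chr5:23692261-23712667) share chromosome 5. The others are Trak2 (chr1:58900449-58974345), Pkp4 (chr2:59160850-59355205), Tsc22d2 (chr3:58414702-58466787), Akap12 (chr10:4266329-4359471), Kcnma1 (chr14:23292288-24005110) and Cyb5r3 (chr15:83153495-83176440), in GRCm38.p6. The median span of the members was 80561 bp, against 17146 bp over protein-coding genes; Kcnma1, at 712823 bp, was the longest of them.

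**Figure D1:**
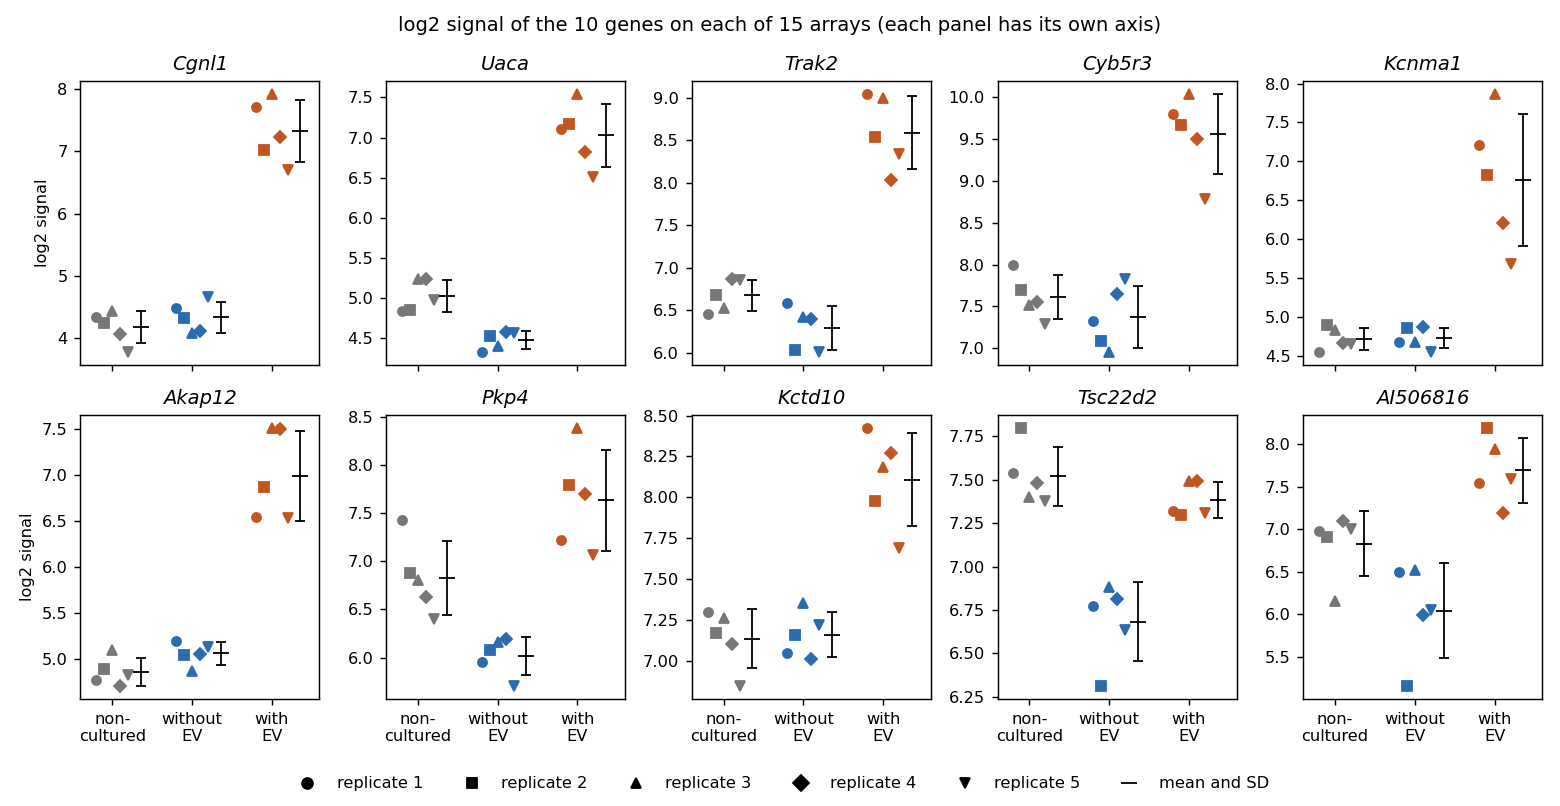
Deposited log2 signal of each member on every array, by group (non-cultured, without EV and with EV, 5 arrays each). Each gene has 1 panel, with points for arrays and bars for the group mean and SD. For Kcnma1 the probe set with the higher mean is drawn. For the 10 probe sets drawn, which are those used in the fit, all 5 arrays with EV lie above all 5 arrays without EV. The second Kcnma1 probe set, not drawn, read between 3.44 and 3.93 on all 15 arrays.

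By the probe sets used in the fit, cultures with EV were brighter than cultures without EV for all 10 members in all 25 pairs of arrays. How many of all genes separate in this way was not counted. The second Kcnma1 probe set was higher with EV in 13 of 25 pairs. In the fit the differences ran from 1.63-fold (Tsc22d2) to 7.92-fold (Cgnl1), with a median of 3.94-fold. Of all 22180 genes tested, 40 (0.18%) were called higher with EV and 4 (0.018%) lower in limma's fit at an adjusted p under 0.05. By log2 difference the members held places 3 (Cgnl1), 5 (Uaca), 8 (Trak2), 9 (Cyb5r3), 11 (Kcnma1), 12 (Akap12), 15 (AI506816), 16 (Pkp4), 27 (Kctd10) and 33 (Tsc22d2) among those 40. This contrast chose the members, so nothing is read from these counts.

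The members were also set against non-cultured cells, which asks whether each gene's signal with vesicles went past the level of freshly sorted cells or returned to it. Both comparisons share arrays with the contrast that chose the members: the arrays without EV in one, the arrays with EV in the other. A gene chosen because its arrays without EV were low is more easily low against non-cultured cells too, so their p-values are not independent of the choice. In cultures without EV against non-cultured cells, 0 of 10 members were called higher and 3 lower, and 6.75% of all genes were called higher and 6.88% lower. With EV against non-cultured cells, 9 of 10 were called higher and 0 lower, and 6.28% of all genes were called higher and 7.85% lower. The median log2 difference of the members was −0.31 in the first comparison and 1.93 in the second, against 0.01 and 0.04 over all genes.

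**Figure D2:**
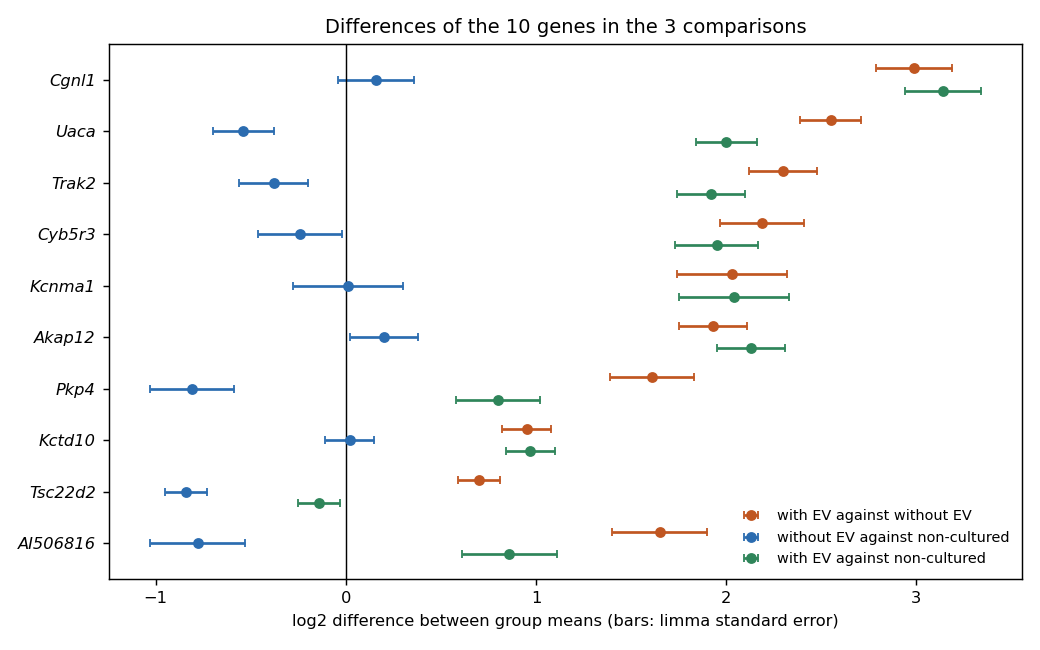
Log2 differences of the members with moderated standard errors from limma in the 3 comparisons of the 3 groups of 5 arrays. The differences between cultures with and without EV (0.70 to 2.99) are those the genes were chosen by; without EV against non-cultured cells they lie between −0.84 and 0.20, and with EV against non-cultured cells between −0.14 and 3.14.

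Cgnl1 binds the cytoplasmic face of tight and adherens junctions. Its log2 signal was 4.34, 4.24, 4.44, 4.08 and 3.78 on the 5 arrays of non-cultured cells. Without EV the arrays read 4.49, 4.33, 4.08, 4.12 and 4.66. With EV they read 7.72, 7.03, 7.92, 7.24 and 6.70. The 2 groups without vesicles overlap, and the lowest array with EV is about 2 log2 units above the highest of the others. Cgnl1 was 7.92-fold higher with EV than without (log2 difference 2.99, SE 0.20). Without EV it differed from non-cultured cells by 0.16 (SE 0.20, 95% interval −0.28 to 0.59, adjusted p = 0.742), and with EV it was 8.85-fold higher than in non-cultured cells (adjusted p = 3.92e-08).

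Pkp4, an armadillo-repeat protein of the p120 catenin and plakophilin family, followed another order. Its log2 signal in non-cultured cells was 7.43, 6.88, 6.80, 6.63 and 6.40. It was 5.96, 6.08, 6.17, 6.19 and 5.70 without EV, and 7.22, 7.80, 8.38, 7.70 and 7.06 with EV. Every array without EV lies under every non-cultured array, while the arrays with EV overlap the non-cultured ones in 2 of 25 pairs. Pkp4 fell 1.75-fold in culture without EV (log2 difference −0.81, SE 0.22, adjusted p = 0.0232). With EV it was 3.05-fold higher than without and 1.74-fold higher than in non-cultured cells (log2 difference 0.80, SE 0.22, adjusted p = 0.0236). Both calls against non-cultured cells depend on single arrays: the first was lost when non-cultured replicate 1 (adjusted p = 0.0648) or replicate 5 of the cultures without EV (0.062) was left out, and the second when replicate 2 or 3 with EV or non-cultured replicate 4 or 5 was left out (0.054 to 0.0622).

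Akap12 anchors protein kinase A and protein kinase C near the plasma membrane and the actin cytoskeleton. Non-cultured arrays read 4.77, 4.89, 5.09, 4.70 and 4.82. Arrays without EV read 5.19, 5.04, 4.87, 5.06 and 5.13, and those with EV 6.54, 6.86, 7.51, 7.49 and 6.53. All arrays with EV are above all others, with replicates 3 and 4 the highest and replicates 1 and 5 the lowest. Akap12 was 3.80-fold higher with EV than without, and 4.38-fold higher than in non-cultured cells (log2 difference 2.13, SE 0.18, adjusted p = 6.59e-07). Without EV it differed from non-cultured cells by 0.20 (95% interval −0.18 to 0.58, adjusted p = 0.583).

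Uaca, an ankyrin-repeat and coiled-coil protein, is known as a partner of the apoptosome protein Apaf1. Its signal was 4.83, 4.85, 5.23, 5.24 and 4.97 in non-cultured cells and 4.33, 4.53, 4.41, 4.58 and 4.57 without EV. With EV it was 7.11, 7.17, 7.54, 6.82 and 6.50. The 3 groups do not overlap: the cultures without EV are the lowest and those with EV the highest. Uaca fell 1.46-fold in culture without EV (log2 difference −0.54, SE 0.16, adjusted p = 0.0287), a call that was lost without non-cultured replicate 3 or 4 or without replicate 1 or 3 of the cultures without EV (adjusted p = 0.061 to 0.0734). With EV it was 5.84-fold higher than without and 4.01-fold higher than in non-cultured cells (adjusted p = 2.89e-07).

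Trak2 joins mitochondria, through the GTPases Rhot1 and Rhot2, to kinesin. Non-cultured arrays read 6.45, 6.68, 6.52, 6.87 and 6.85. Those without EV read 6.59, 6.03, 6.42, 6.40 and 6.01, and those with EV 9.04, 8.54, 8.998, 8.04 and 8.34. Signals with EV are above all others, and the remaining groups overlap. Trak2 was 4.92-fold higher with EV than without and 3.77-fold higher than in non-cultured cells (adjusted p = 2.29e-06). Without EV against non-cultured cells its log2 difference was −0.38 (adjusted p = 0.206).

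Cyb5r3 is the reductase of cytochrome b5, known in red cells for the reduction of methemoglobin and in other cells for its part in lipid synthesis. It read 8.001, 7.70, 7.52, 7.55 and 7.29 in non-cultured cells, 7.33, 7.09, 6.96, 7.65 and 7.83 without EV, and 9.80, 9.67, 10.04, 9.51 and 8.78 with EV. Replicate 5 is the lowest of the arrays with EV and still above every array of the other groups. Cyb5r3 was 4.55-fold higher with EV than without and 3.85-fold higher than in non-cultured cells (adjusted p = 1.39e-05). Its difference in culture without EV was −0.24 (95% interval −0.70 to 0.22, adjusted p = 0.601).

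Kcnma1 encodes the pore-forming subunit of a potassium channel opened by calcium and voltage. The probe set with the higher mean read 4.55, 4.89, 4.83, 4.67 and 4.65 in non-cultured cells and 4.68, 4.85, 4.68, 4.87 and 4.55 without EV. It read 7.21, 6.82, 7.87, 6.203 and 5.69 with EV. The arrays with EV are spread widely, with an SD of 0.85 that is the largest among the members, but none reaches down to the others. Kcnma1 was 4.09-fold higher with EV than without by this probe set and 4.11-fold higher than in non-cultured cells (adjusted p = 0.00012). The second probe set read 3.59, 3.59, 3.60, 3.53 and 3.58 in non-cultured cells, 3.80, 3.44, 3.60, 3.64 and 3.54 without EV, and 3.93, 3.51, 3.51, 3.75 and 3.55 with EV. Its arrays overlap between all groups, with differences of 0.07 or less, so the probe sets of Kcnma1 disagree. When both were averaged, the difference between cultures with and without EV was 1.04.

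Kctd10 joins substrates to the CUL3 ubiquitin ligase. It read 7.30, 7.17, 7.26, 7.10 and 6.85 in non-cultured cells and 7.05, 7.16, 7.36, 7.02 and 7.22 without EV. With EV it read 8.42, 7.98, 8.18, 8.27 and 7.69. The arrays with EV are the brightest by a narrow margin, and the other groups overlap. Kctd10 was 1.93-fold higher with EV than without and 1.96-fold higher than in non-cultured cells (log2 difference 0.97, adjusted p = 8.01e-05). Without EV it differed by 0.02 from non-cultured cells (95% interval −0.25 to 0.30, adjusted p = 0.957).

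Tsc22d2 belongs to the TSC22 domain family of leucine zipper proteins. It read 7.54, 7.80, 7.40, 7.48 and 7.38 in non-cultured cells, 6.77, 6.31, 6.88, 6.82 and 6.64 without EV, and 7.32, 7.30, 7.50, 7.49 and 7.31 with EV. The cultures without EV stand apart as the low group, and arrays with EV overlap those of non-cultured cells, being higher in 6 of 25 pairs. Tsc22d2 fell 1.79-fold in culture without EV (log2 difference −0.84, SE 0.11, adjusted p = 8.19e-05). With EV it was 1.63-fold higher than without, and its difference from non-cultured cells was −0.14 (95% interval −0.37 to 0.10, adjusted p = 0.5).

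AI506816, the non-coding member, read 6.98, 6.90, 6.16, 7.10 and 7.003 in non-cultured cells. Without EV it read 6.50, 5.16, 6.52, 5.998 and 6.05, and with EV 7.54, 8.19, 7.95, 7.19 and 7.59. The arrays with EV are above all others, and non-cultured replicate 3 falls among the cultures without EV. AI506816 was 3.13-fold higher with EV than without and 1.82-fold higher than in non-cultured cells (log2 difference 0.86, SE 0.25, adjusted p = 0.032). Its difference in culture without EV, −0.78 (95% interval −1.33 to −0.24), missed the threshold (adjusted p = 0.0526), and passed it without non-cultured replicate 3 (−0.95, adjusted p = 0.0192) and without any one of 4 other arrays (replicate 2 or 4 with EV, replicate 1 or 3 without EV). The call with EV against non-cultured cells was lost without replicate 2 or 3 with EV or without non-cultured replicate 2 or 3 (adjusted p = 0.054 to 0.0847).

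The members can be set in order by their arrays without EV, although differences between members were not tested. Uaca, Pkp4 and Tsc22d2 fell in culture alone, and for Tsc22d2 the cultures with EV were near the level of freshly sorted cells. Cgnl1, Kcnma1, Akap12 and Kctd10 had differences of 0.20 or less in culture alone, and their signal with EV was 1.96-fold to 8.85-fold above that of non-cultured cells. Cgnl1 in both groups without vesicles (means 4.18 and 4.34) and Uaca without EV (4.48) lay below the lowest array median of 4.62. Kcnma1 in the groups without vesicles (4.72 and 4.73) lay among the array medians. No background level is given, so small changes at such signals could be missed. Trak2, Cyb5r3 and AI506816 had negative differences that did not pass the test.

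Among the 5 arrays with EV, replicates 3 and 5 were the extremes for most members. On replicates 1, 2 and 4 the members were split, with 6, 5 and 4 of the 10 above the group mean. Replicate 3 was the highest array for 7 of the 10 members and above the group mean for all 10, and replicate 5 was the lowest for 7 and above the mean for 0. Averaged over the members, the arrays with EV read 7.79, 7.74, 8.19, 7.60 and 7.22. Averages without EV were 5.89, 5.66, 5.83, 5.87 and 5.84, and those of non-cultured cells 6.22, 6.201, 6.13, 6.14 and 5.999. The averages with EV thus cover about 1 log2 unit, more than those of either other group. The other 30 genes called higher with EV had the same extremes: replicate 3 was the highest array for 15 of them and replicate 5 the lowest for 17 (56.7%). Over all 22180 genes replicate 3 was the highest for 16.2% and replicate 5 the lowest for 20.3%. No test was made of this pattern, which was seen in the data.

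**Figure D3:**
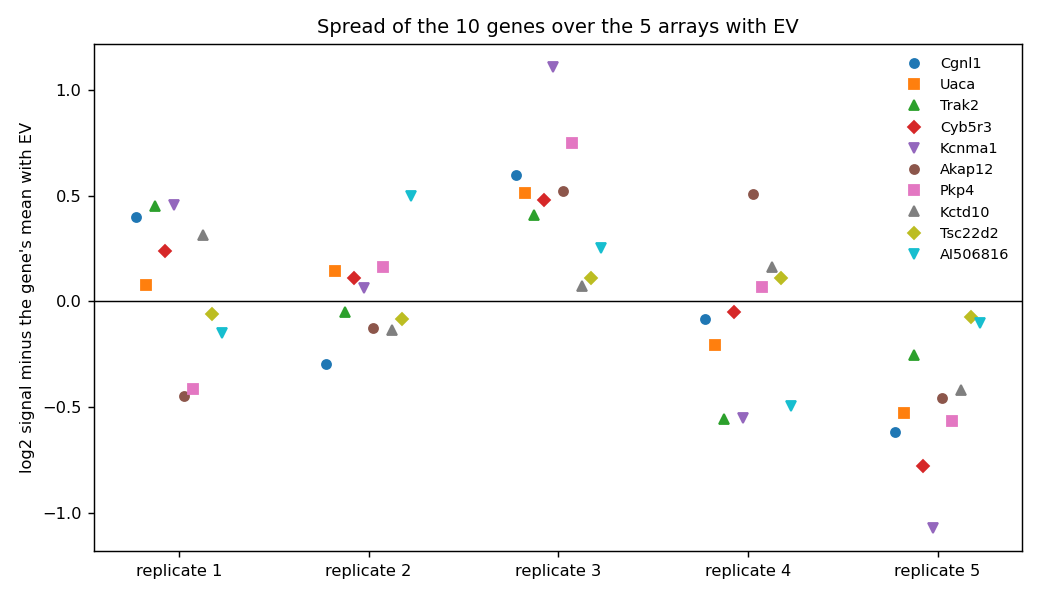
Deviation of each member's log2 signal from its group mean on the 5 arrays with EV. Replicate 3 lies above 0 for all 10 members (median deviation 0.50) and replicate 5 below 0 for all 10 (median −0.49).

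Across all 15 arrays the 45 pairs of members had Pearson correlations of 0.276 to 0.967, with a median of 0.854; Tsc22d2 had the lowest, with a median of 0.43. These values mostly restate the group difference that the members share by choice. Members, predicted genes (Gm, Rik and LOC names) and small RNAs were left out when likeness was ranked. Among the remaining genes, those with profiles most like the mean of the 10 standardized members were Arhgap11a (r = 0.982), Kif1c (0.967), Ddr2 (0.953), Wasf3 (0.944), Kank2 (0.942), Plec (0.939), Tln2 (0.938), Scd1 (0.936), Cdc42bpg (0.924) and Peg10 (0.920). Arhgap11a was closest to Uaca (0.982), Wasf3 to Cgnl1 (0.977) and Trak2 (0.967), Ddr2 to Akap12 (0.977) and Cyb5r3 (0.945), and Kank2 to Kcnma1 (0.979). Kctd10 was closest to Peg10 (0.942), Pkp4 to Anxa2 (0.913), Tsc22d2 to Epb41l3 (0.904) and AI506816 to Anln (0.862).

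Paralogs and partners of the members were read in the same fit. Of 121 genes in 9 lists of relatives, 112 were measured. Between cultures with and without EV 0 were called higher and 0 lower by limma, in the fit as reported and in all 24 alternatives, limma-trend included, where 0.18% and 0.018% of all genes were called; at that background, 0 calls in a list of this size is not a result about the relatives. An unadjusted p under 0.05 was found for 7 (6.25%), against 6.82% of all genes. Their differences ran from −0.54 to 0.48 with a median of 0.00. Against non-cultured cells 13 relatives rose (11.6%) and 8 fell (7.14%) without EV, and 13 rose and 8 fell with EV. Over all genes 6.75% rose and 6.88% fell without EV, and 6.28% rose and 7.85% fell with EV, so the share that fell is near the background and most relatives were not called. The relatives were not selected on the difference and the members were, so the gap between both sets is no test.

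Of the tight junction genes, 11 of 12 were measured. Cgn, the paralog of Cgnl1, had the highest difference of all relatives at 0.48 (SE 0.11, adjusted p = 0.163), and rose against non-cultured cells with EV (0.54, adjusted p = 0.00304). The scaffold Tjp1 (ZO-1) had a difference of 0.36 and Ocln, the occludin of tight junctions, 0.26, neither called. Tiam1, a Rac activator that binds Cgnl1, fell 2.0-fold in culture without EV (adjusted p = 0.000301), and Jam3 fell as well (−0.62, adjusted p = 0.0385). Of the 16 measured relatives of Pkp4, Ctnnb1 (β-catenin) rose in culture without EV by 0.89 (adjusted p = 8.57e-06) and Ect2, a regulator of cytokinesis, fell by 1.34 (adjusted p = 0.0022), and their differences between the cultures were 0.03 and −0.24.

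All 20 anchoring proteins and protein kinase A subunits in the Akap12 list were measured. Akap2 had a difference of 0.44 with EV (unadjusted p = 0.00539, adjusted p = 0.499). In culture without EV Akap8l (0.60), Akap13 (0.70) and the regulatory subunit Prkar2b (0.99) rose and the regulatory subunit Prkar1a fell (−0.37, adjusted p = 0.0231). Of 5 measured genes in the Uaca list, Apaf1 (0.42), Casp9 (0.41) and Lgals3 (0.56) rose in culture without EV and cytochrome c, Cycs, fell (−1.12, adjusted p = 0.000142), where Uaca fell.

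Trak1, the paralog of Trak2, had a difference of −0.34 between cultures with and without EV that was not called (SE 0.14, adjusted p = 0.677). Against non-cultured cells Trak1 fell without EV (−0.52, adjusted p = 0.0191) and with EV (−0.86, adjusted p = 0.000469). Ogt, which adds N-acetylglucosamine to proteins and binds Trak proteins, rose by 1.76 in culture without EV (adjusted p = 4.71e-07) and Rhot1 by 0.58 (adjusted p = 0.00143). Of 9 measured genes of the cytochrome b5 system 0 were called in any of the 3 comparisons by limma, with 0, 0 and 1 at an unadjusted p under 0.05; Cyb5b had a difference of −0.46 and Cyb5r1 of −0.26 with EV. Of 12 measured channel relatives of Kcnma1, the intermediate-conductance channel Kcnn4 rose in culture without EV (0.69, adjusted p = 0.00107), with a difference of −0.05 between the cultures.

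In the Kctd10 list 23 of 26 genes were measured. Kctd12 fell by 1.52 in culture without EV (adjusted p = 2.68e-06) and Kctd5 by 0.71, while Kctd1 rose by 1.24 and Shkbp1 by 0.80. Cul3, the scaffold of the ligase, fell with EV against non-cultured cells (−0.41, adjusted p = 0.0267). Kctd6 had the lowest difference between cultures with and without EV (−0.54, SE 0.26), and Kctd7 was at 0.33. In the Tsc22d2 list Tsc22d3 (GILZ), a glucocorticoid-induced member of the family, rose by 1.76 in culture without EV (SE 0.11, adjusted p = 2.13e-08), where Tsc22d2 fell; its difference between the cultures was −0.07. Tsc22d1 had a difference of −0.27 with EV (unadjusted p = 0.0131, adjusted p = 0.581), and fell against non-cultured cells (−0.50, adjusted p = 0.00162).

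The genes next to the members on their chromosomes were read as well. Of 20 nearest protein-coding neighbours 18 were measured, and 0 were called higher or lower between cultures with and without EV by limma; at 0.18% and 0.018% of all genes, no call is read from so few. Dlg5, beside Kcnma1, was the 1 with an unadjusted p under 0.05, at 0.32 (adjusted p = 0.538). In 5 cases the neighbour lies within 21 bp of the member or overlaps it, and 4 of these were measured (Gm42226, which overlaps AI506816, was not). Ube3b, 11 bp from Kctd10, had a difference of 0.16 (SE 0.12, adjusted p = 0.834), Ccdc148, 21 bp from Pkp4, one of 0.12 (SE 0.10, adjusted p = 0.839), and Stradb, which overlaps Trak2, one of 0.07 (SE 0.20, adjusted p = 0.97). Myo1h, which overlaps Kctd10 at its other end, had a difference of 0.17 (SE 0.10, adjusted p = 0.769). In culture without EV the neighbours of Akap12, Mthfd1l (−1.11, adjusted p = 7.56e-06) and Zbtb2 (−0.38, adjusted p = 0.042), fell.

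Markers of other cell types were read beside the members. Of 35 measured stromal and mesenchymal markers, 2 were called higher with EV than without and 0 lower: the collagen receptor Ddr2 (2.31, SE 0.19, adjusted p = 6.77e-06) and the actin-binding protein Cald1 (0.68, SE 0.09, adjusted p = 0.00128). Over the whole list the median difference was 0.10, and 8 genes (22.9%) had an unadjusted p under 0.05, against 6.82% of all genes; all 8 were higher with EV. List means of the log2 signal were 4.61 to 4.87 with EV, 4.52 to 4.64 without EV and 4.61 to 4.66 in non-cultured cells. Without Ddr2 and Cald1 they were 4.58 to 4.845 with EV, 4.55 to 4.68 without EV and 4.65 to 4.71 in non-cultured cells. The summed linear signal of the whole list was 1084 to 1275 with EV, 1007 to 1254 without EV and 1127 to 1333 in non-cultured cells. The next smallest p-values were those of the chemokine Cxcl12 (0.50, adjusted p = 0.33), the matrix protein Sparc (0.38, adjusted p = 0.464) and the growth factor Ptn (0.78, adjusted p = 0.538), followed by Col1a1, Loxl1 (0.40) and Pdgfra (0.33), none called. The collagen genes Col1a1, Col1a2 and Col3a1 had differences of 0.32, 0.10 and −0.02, and Dcn and Lum, at mean signals of 3.10 and 3.16 with EV, of 0.00 and −0.01. On the arrays with EV the list was highest on replicate 1 (4.87) and replicate 3 (4.83) and lowest on replicate 5 (4.61). No marker is listed at 0, since the table gives no background level. Markers of endothelial cells, macrophages, neutrophils and monocytes, mast cells, megakaryocytes, erythroid cells and lymphocytes had 0 calls between the cultures by limma. At 0.18% and 0.018% of all genes called there, this is not a result about the markers. Of them 2 (1 endothelial, 1 macrophage) had an unadjusted p under 0.05. Without EV against non-cultured cells, 3 of 10 endothelial, 3 of 10 macrophage and 4 of 11 neutrophil and monocyte markers were called higher. So were 2 of 7 mast cell and 2 of 7 megakaryocyte markers. Called lower were 1 endothelial and 2 neutrophil and monocyte markers. Over all genes 6.75% rose and 6.88% fell there. The part of stromal RNA in the members' difference was not tested.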

How the data were processed

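Gene expression was measured on 15 arrays, in 3 groups of 5 taken from the sample titles. The authors deposited 1 table of 41345 probe sets whose range (1.396 to 13.03) is that of log2 values. Base, background correction and normalization were not given in the sources used here, and MAS5 is named without a role or version, per the submitters' processing notes. Per the labels' protocols, targets were made from 500 pg of total RNA. The number of arrays limits the precision, and no signal over background is given. Values were used as deposited. Probe sets with exactly 1 symbol in the platform annotation were kept (23521), and for the 1082 genes with several, the one with the highest mean was used, leaving 22180 genes. Group means were estimated in 1 linear model of the 15 arrays (lmFit and eBayes of limma 3.58.1, R 4.3.3), two-sided, with Benjamini-Hochberg adjustment over all genes and calls at an adjusted p under 0.05. The code was tested on simulated data.

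The members and lists were chosen with earlier results of these data known. The text names all members, relatives called in any comparison and up to 3 more a list with the smallest p with EV, some of the nearest neighbours (called, at an unadjusted p under 0.05, or within 21 bp), the genes of highest likeness, called markers and those of smallest p; Col1a1, Loxl1, Pdgfra, Slamf1, Procr, Col1a2, Col3a1, Dcn, Lum, Kit and Cd34 were added after their values were seen. Alternatives were quantile normalization, median centring, dropping the dimmest 40% of genes, other treatments of probe sets, the spread of 2 groups alone, limma-trend, a replicate block and leaving out each array.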

Additional observations from a re-analysis of the deposited data

Results flagged for a closer look

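AI506816 had 1 array far from the rest of its group. In non-cultured cells replicate 3 read 6.16 on the log2 scale, below the other 4 arrays at 6.90 to 7.10, and the gap took 0.789 of the range of the group, above the 0.71 that the Dixon ratio allows for 5 samples. Of 33 groups of 5 arrays tested, this was the only one past that value, and chance puts about 5% of groups past it. Without that array the difference of AI506816 between cultures without EV and non-cultured cells was −0.95 (adjusted p = 0.0192 in limma's fit).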

How the results depend on the processing

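Whether the replicate numbers pair the samples is not known. Same-numbered arrays of different groups had deviations correlated at −0.125 to 0.187 (median 0.02, 15 pairs), and different-numbered arrays at −0.12 to 0.113 (60 pairs). Between cultures with and without EV the same-numbered correlations were 0.023 to 0.187. Such weak values cannot exclude pairing, so the block is given here as an alternative. With it 35 genes were called higher and 4 lower with EV than without. The 35 include 8 members, all but Tsc22d2 and AI506816. This contrast chose the members, so their count is a description and no test. Over all genes, 4 were called lower with EV than without, and 2 with quantile normalization, 1 with all probe sets fitted and 0 with the spread of the 2 groups alone. Leaving out 1 array gave 0 to 4 lower and 29 to 50 higher calls, and 29 to 53 in both directions together, the fewest without replicate 2 of the cultures without EV. Members called lower without EV against non-cultured cells were 2 to 4 when 1 array was left out, where 1230 to 1681 of all genes were. Those called higher with EV against non-cultured cells were 7 to 9, where 1147 to 1467 of all genes were. Both comparisons share arrays with the contrast that chose the members, so these ranges are not independent of the choice. Against non-cultured cells, AI506816 with EV was lost with the replicate block (adjusted p = 0.0717) and with all probe sets fitted (0.0587), Pkp4 with EV with the spread of 2 groups (0.0576), and Uaca without EV with all probe sets fitted (0.0512). AI506816 without EV passed with quantile normalization (0.0495) and once the dimmest 40% were dropped (0.0331). No called result changed its sign; the uncalled differences of Kctd10 and Kcnma1 without EV against non-cultured cells, both near 0, ran from −0.05 to 0.06 and from −0.03 to 0.05 when 1 array was left out. No background level is given, so signals near 3 to 4, such as the second Kcnma1 probe set, cannot be told from background.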
